A study of Homo sapiens with 6 samples.

Results

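The 10 genes described here write, copy and remove methylation of cytosine in DNA: the methyltransferases DNMT1, DNMT3A and DNMT3B, the hemimethylated-DNA binding proteins UHRF1 and UHRF2, the dioxygenases TET1, TET2 and TET3, and the glycosylases TDG and MBD4. They were chosen by symbol, and all 10 were found among the 19960 genes of the deposited table. The samples are MKN28 cells, an established human gastric adenocarcinoma line that cell line registers hold to be a derivative of another gastric cancer line. In the shLTBP1 group the cells stably express a short hairpin RNA against LTBP1, which encodes a latent TGF-beta binding protein of the extracellular matrix. In the shSCR group they stably express a scrambled hairpin. There are 3 RNA-seq libraries in each group. The sources used here do not give the number of hairpins or clones or say whether libraries are separate cultures, so p-values measure the spread between libraries, which may be technical.

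DNA methylation is set up by DNMT3A and DNMT3B, which act on DNA that carries no mark, and is copied after replication by DNMT1, which UHRF1 brings to the newly made strand. The TET enzymes oxidize methylcytosine stepwise, and TDG removes the most oxidized forms so that base excision repair can restore plain cytosine. MBD4 removes thymine that arises when methylcytosine loses its amino group. RNA levels of these genes say nothing by themselves about methylation of the DNA, which was not measured here.

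The deposited values are read counts normalized between libraries with DESeq2, per the name of the table, with totals of 30479879 to 30941103 in each library. A difference in RNA between these bulk samples cannot be told apart from a difference in the share of cells that express it. LTBP1 stood at 59.0, 66.8 and 49.0 in shLTBP1 libraries, against 977, 964 and 1011 in shSCR libraries, which leaves 5.92% of the control mean. An exact two-sided permutation test of these values gave p = 0.1, the smallest that 3 against 3 allows. LTBP1 lies on chromosome 2, which as a whole was lower in shLTBP1, as described below. Its log2 fold change was -4.07, or -3.50 relative to its neighbours, whose median was -0.57. The 5.92% thus includes the level of that region. Epithelial markers were abundant (5 of 5 detected, summed level 267214 to 291416 in shLTBP1 libraries and 307451 to 328371 in shSCR libraries), with most of the sum from KRT8 and KRT18. Of the 5, 3 fell: EPCAM, an adhesion molecule encoded on chromosome 2, averaged 9981 ± 466 in shLTBP1 and 21679 ± 972 in shSCR (SD, n = 3 each; log2 fold change -1.12, limma adjusted p = 1.39e-07, and -0.58 relative to its neighbours), E-cadherin (CDH1) was at -0.34 and the keratin KRT18 at -0.25 (limma adjusted p = 0.00072 and 0.0035), while KRT19 rose by 0.22 (limma adjusted p = 0.0109; 0.019 and 0.812 relative to its neighbours). KRT8 was at -0.15 and did not pass (limma adjusted p = 0.122). It did pass with quantile normalization (-0.40, limma adjusted p = 6.82e-06), without shSCR replicate 3 (-0.24, 0.00565) and relative to its neighbours (-0.25, 0.0184). Over all tested genes 26.3% rose and 26.8% fell. Fibroblast markers summed to 705.8 to 930.6 in shLTBP1 libraries and 1094 to 1342 in shSCR libraries, nearly all of it COL1A1; LUM had 36.6 to 52.0 in shLTBP1 libraries and was listed at 0 in all shSCR libraries. Blood markers summed to 15.2 to 18.03 in shLTBP1 libraries and 2.57 to 15.9 in shSCR libraries, with PTPRC below 1 in every library. Endothelial markers summed to 23.9 to 30.5 in shLTBP1 libraries and 35.6 to 51.2 in shSCR libraries. No fibroblast, blood or endothelial marker was listed at 0 in all 6 libraries, and the part of these lists in the results below was not tested.

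Before the values, the starts of 4 of the genes are shown. RefSeq windows on GRCh38.p14, from 250 bases before to 50 after a transcript start, matched all 10 genes. The first window listed for TET1 (plus strand, chr10:68560087-68560386) and for TET2 (plus strand, chr4:105145625-105145924) are printed because these genes changed most, and in opposite directions. Capitals mark CpG, the dinucleotide that these enzymes act on.

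TET1: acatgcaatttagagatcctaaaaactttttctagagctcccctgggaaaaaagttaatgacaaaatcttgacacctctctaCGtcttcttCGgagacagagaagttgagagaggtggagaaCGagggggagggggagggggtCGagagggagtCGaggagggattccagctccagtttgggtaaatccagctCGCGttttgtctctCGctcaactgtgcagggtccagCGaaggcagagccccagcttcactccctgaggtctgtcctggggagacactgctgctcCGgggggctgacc
TET2: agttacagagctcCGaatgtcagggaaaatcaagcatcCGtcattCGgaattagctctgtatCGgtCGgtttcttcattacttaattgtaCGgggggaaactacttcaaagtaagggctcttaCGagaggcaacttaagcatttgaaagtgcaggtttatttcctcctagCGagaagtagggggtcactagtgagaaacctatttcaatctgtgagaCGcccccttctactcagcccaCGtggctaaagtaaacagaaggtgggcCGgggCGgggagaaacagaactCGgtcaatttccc

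The TET1 window holds 10 CpG and the TET2 window 13, close to the median of 13 over the first windows of 27167 genes (quartiles 3 and 28). The second TET2 window, for a start further downstream, holds 35. The first windows of DNMT1, DNMT3A, UHRF1, UHRF2, TDG, MBD4 and TET3 hold 22 to 45. The only DNMT3B window in the table has 3, and it lies inside the gene body, at a start downstream of the annotated gene start. The first windows of DNMT1 and UHRF1, printed next, also lie inside the annotated genes, downstream of their outermost starts. Which starts are used in these cells cannot be read from values summed per gene.

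The windows of DNMT1 (minus strand, chr19:10194904-10195203) and UHRF1 (plus strand, chr19:4909251-4909550) are printed because both genes act at replication. Capitals mark matches to TTTNNCGC on either strand, a form of the motif of E2F factors, which drive S phase genes.

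DNMT1: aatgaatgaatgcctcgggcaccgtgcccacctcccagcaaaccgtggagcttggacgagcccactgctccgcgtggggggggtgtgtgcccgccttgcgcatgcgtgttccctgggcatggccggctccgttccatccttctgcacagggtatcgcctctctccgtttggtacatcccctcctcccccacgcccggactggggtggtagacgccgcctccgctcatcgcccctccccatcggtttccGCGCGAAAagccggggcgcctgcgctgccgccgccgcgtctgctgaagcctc
UHRF1: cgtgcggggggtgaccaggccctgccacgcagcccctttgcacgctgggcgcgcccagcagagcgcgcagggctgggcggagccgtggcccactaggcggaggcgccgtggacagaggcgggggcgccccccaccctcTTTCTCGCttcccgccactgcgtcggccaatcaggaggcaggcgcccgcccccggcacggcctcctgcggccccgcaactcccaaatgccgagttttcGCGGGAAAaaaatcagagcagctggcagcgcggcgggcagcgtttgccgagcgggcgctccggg

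DNMT1 has 1 match and UHRF1 has 2, while the first windows of the other 8 genes have none. The motif is found in 6.9% of first windows overall. Also searched on both strands were the SMAD palindrome GTCTAGAC and the CAGA box AGCCAGACA, both motifs of TGF-beta signalling (0.2% and 0.3% of all first windows), which none of the 10 first windows holds. The E-box CACGTG (7.4%) is in the windows of TET2, TET3 and TDG, the GC box GGGCGG (44.5%) in those of UHRF1, UHRF2, TET2, TET3 and MBD4, and the CRE core TGACGT (8.3%) in that of TDG. A match is a description of the letters, not of binding, and the absence of one says only that these letters are not in the window.

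Of the 10 genes, 3 rose (TET2, UHRF1 and MBD4), 4 fell (TET1, DNMT3A, TET3 and DNMT1) and 3 did not pass (DNMT3B, UHRF2 and TDG), by limma's test with Benjamini-Hochberg adjustment over 12789 genes at 0.05. Over all tested genes 53.1% passed, 26.3% higher and 26.8% lower in shLTBP1, so that 7 of 10 is read against a background in which most genes were called. The median log2 fold change of the 10 was -0.023, and that of all tested genes 0.0038. The values of the 2 groups did not overlap for 8 of the 10, compared with 60.8% of tested genes. All 10 passed the filter of a mean of at least 10, but TET1 did so only through the shSCR libraries.

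**Figure D1:**
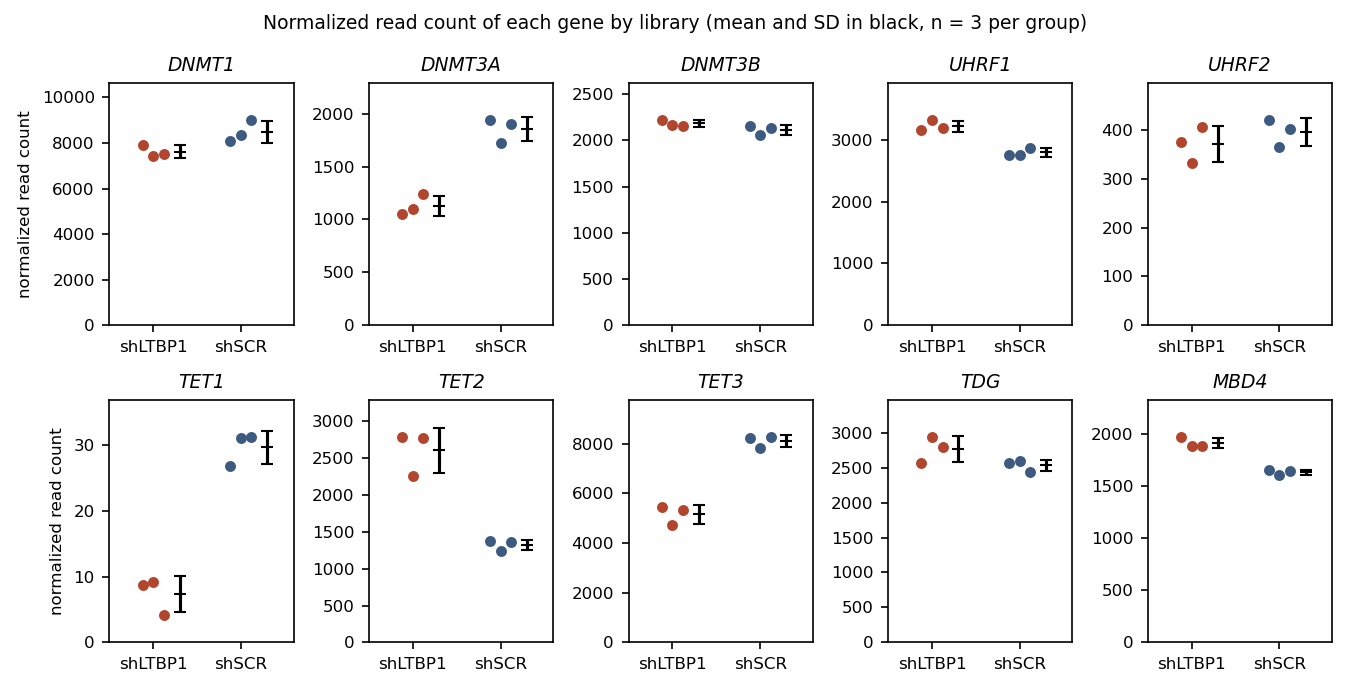
Normalized read count (vertical axis, from 0) of the 10 genes in each library, shLTBP1 left and shSCR right in each panel; black marks are the mean and SD of 3 libraries. TET2 is higher in all 3 shLTBP1 libraries, TET1, TET3 and DNMT3A are lower, and the points of UHRF2 and TDG overlap between groups.

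Of the TET genes, which begin the removal of methylation, TET1 and TET2 showed the largest changes among the 10. TET2 lies on the plus strand of chromosome 4 (105145875 to 105279816 in hg38). It had 2782, 2257 and 2768 normalized counts in shLTBP1 libraries, against 1372, 1240 and 1356 in shSCR libraries. Every shLTBP1 value was well above every shSCR value. The means were 2602 ± 299 in shLTBP1 and 1323 ± 71.7 in shSCR (SD, n = 3 each), a rise of 96.8%. On a log2(value + 1) scale, used for every fold change here, TET2 differed by 0.97 (standard error 0.085, limma adjusted p = 9.48e-06). Among tested genes, 10.1% had a larger absolute log2 fold change.

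TET1 (plus strand of chromosome 10, 68560656 to 68694482) was expressed at the edge of detection. It had 8.72, 9.11 and 4.24 normalized counts in shLTBP1 libraries, against 26.8, 31.1 and 31.2 in shSCR libraries. The groups were well apart, at levels where counting error is large. The means were 7.36 ± 2.71 in shLTBP1 and 29.7 ± 2.52 in shSCR (SD, n = 3 each). TET1 had a log2 fold change of -1.93 (standard error 0.37, limma adjusted p = 0.00176), exceeded in size by 2.3% of tested genes, and the pseudocount makes it smaller than the ratio of the means, 0.248. Its shLTBP1 mean lay below the filter of 10, so TET1 was tested only because of its shSCR level. Its p-value and rank are given as description and add no support for a fall.

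TET3 (plus strand of chromosome 2, 73986404 to 74108176) was the most abundant TET gene in both groups. It had 5452, 4715 and 5315 normalized counts in shLTBP1 libraries, against 8225, 7817 and 8264 in shSCR libraries. All shLTBP1 values lay below all shSCR values, with a log2 fold change of -0.65, a standard error of 0.059 and a limma adjusted p of 1.21e-05. TET3 shares its direction with most of chromosome 2, which is described after the methyltransferases.

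Levels of different genes were compared per kilobase of their longest protein-coding transcript. On that scale the summed TET level was 753, 637 and 739.5 in shLTBP1 libraries, against 860.0, 811.7 and 862.4 in shSCR libraries, and was thus lower in every shLTBP1 library. TET2 made up 36.0% ± 1.02 of the sum in shLTBP1 and 15.4% ± 0.335 in shSCR (SD, n = 3 each). TET3 made up 63.9% ± 0.98 in shLTBP1 and 84.2% ± 0.299 in shSCR, and TET1 0.113% in shLTBP1 and 0.379% in shSCR. TET3 thus remained the larger part in both groups. The shares depend on the length used. Per kilobase of all annotated exons, TET2 and TET3 were at 158 and 420.5 in shLTBP1 and 80.3 and 660 in shSCR. Within each library, the log2 ratio of TET3 to TET2 was 0.99 ± 0.063 in shLTBP1 and 2.62 ± 0.037 in shSCR, and that of TET1 to TET2 was -8.34 ± 0.64 in shLTBP1 and -5.43 ± 0.179 in shSCR. Neither ratio overlapped between groups (exact two-sided permutation p = 0.1 for each of 6 ratios except TDG to MBD4, the smallest possible, so no adjustment over the 6 can pass). The TET1 ratio rests on 4.24 to 9.11 normalized counts of TET1 in shLTBP1 libraries. TET1 was tested only because of its shSCR level, so this ratio is description and adds no support for a fall.

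**Figure D2:**
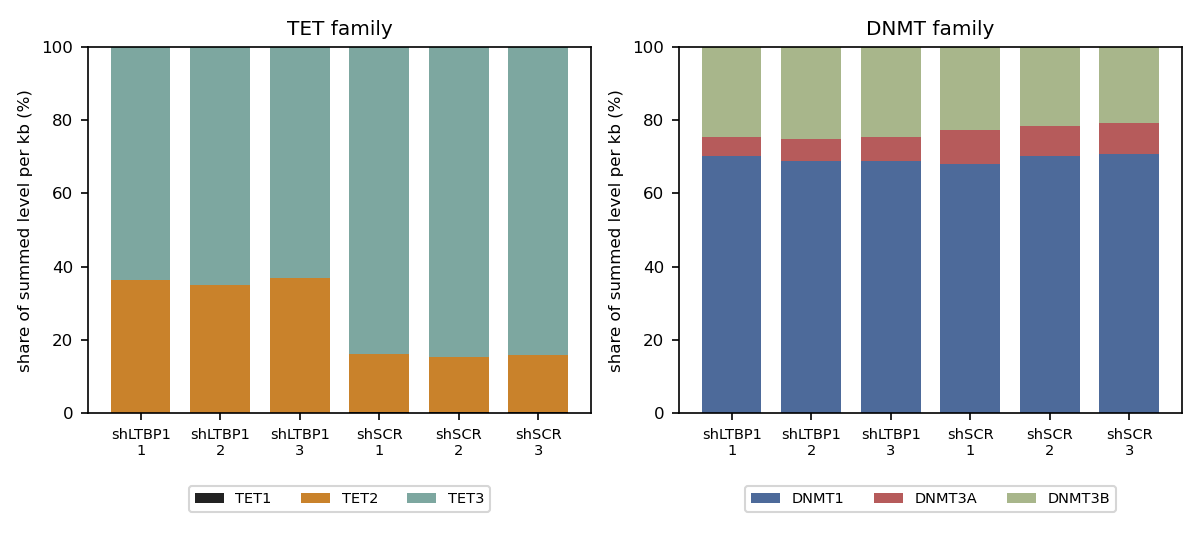
Share of each gene (vertical axis, percent) in the summed level per kilobase of its family, for the TET genes at left and the DNMT genes at right, 1 bar per library with shLTBP1 before shSCR. The TET2 share is 34.9% to 36.8% in shLTBP1 libraries and at most 15.7% in shSCR libraries; TET1 is too small to be seen.

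Of the methyltransferases, DNMT3A changed most. DNMT3A (minus strand of chromosome 2, 25227855 to 25342590) had 1053, 1096 and 1237 normalized counts in shLTBP1 libraries, against 1941, 1721 and 1901 in shSCR libraries. No shLTBP1 value reached the lowest shSCR value. The means were 1129 ± 96.2 in shLTBP1 and 1854 ± 117.5 in shSCR (SD, n = 3 each), a log2 fold change of -0.72 (standard error 0.076, limma adjusted p = 3.35e-05).

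DNMT3B, the other de novo enzyme (plus strand of chromosome 20, 32762385 to 32809356), had 2222, 2169 and 2160 normalized counts in shLTBP1 libraries, against 2151, 2054 and 2130 in shSCR libraries. The groups do not overlap, but they are separated by a gap smaller than the spread within shSCR. The log2 fold change was 0.048, with a 95% interval of -0.059 to 0.16 and a limma adjusted p of 0.424. The log2 ratio of DNMT3B to DNMT3A was 0.955 ± 0.139 in shLTBP1 and 0.189 ± 0.058 in shSCR (SD, n = 3 each), with no overlap. DNMT3L, a cofactor of both enzymes without activity of its own, had 0.656 in 1 shLTBP1 library and was listed at 0 in the other 5 libraries.

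DNMT1, the maintenance enzyme (minus strand of chromosome 19, 10133345 to 10231286), was the most abundant of the 10 genes per kilobase in both groups. It had 7928, 7408 and 7503 normalized counts in shLTBP1 libraries, against 8087, 8343 and 9011 in shSCR libraries. The highest shLTBP1 library and the lowest shSCR library nearly met. DNMT1 had a log2 fold change of -0.15 (standard error 0.052, limma adjusted p = 0.0301). The call was lost without shSCR replicate 2 or 3 or shLTBP1 replicate 2 or 3 (log2 fold changes -0.17, -0.11, -0.14 and -0.14, adjusted p = 0.0581 to 0.124 in limma). The annotated DNMT1 gene overlaps S1PR2 on the same strand, so reads shared by the 2 genes are uncertain; S1PR2 had 390.5 to 442 in shLTBP1 libraries and 502 to 553 in shSCR libraries. Of the summed DNMT level per kilobase, DNMT1 made up 69.3% ± 0.729 in shLTBP1 and 69.7% ± 1.37 in shSCR, DNMT3A 5.9% ± 0.578 in shLTBP1 and 8.7% ± 0.558 in shSCR, and DNMT3B 24.8% ± 0.343 in shLTBP1 and 21.7% ± 0.88 in shSCR (SD, n = 3 each). The sum itself was 2030 ± 53.5 in shLTBP1 and 2250 ± 92.9 in shSCR. These shares and this sum also depend on the length used. Per kilobase of all annotated exons, DNMT1, DNMT3A and DNMT3B were at 777, 93.9 and 472 in shLTBP1 and 866, 154 and 456 in shSCR.

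DNMT3A and TET3 both lie on chromosome 2, which as a whole was lower in shLTBP1. Its 852 tested genes had a median of -0.56 in log2 fold change, with quartiles of -0.83 and -0.32, against 0.028 for all other genes. DNMT3A at -0.72 lay inside the middle of that distribution, with 33.7% of chromosome 2 genes lower than it, and so did TET3 at -0.65, with 39.2% lower. The median of up to 25 tested genes on each side was -0.58 around DNMT3A and -0.62 around TET3. It was subtracted as a fixed value, so intervals and p-values after the subtraction leave out the error of the median itself. With that median subtracted, DNMT3A stood at -0.14 (95% interval -0.31 to 0.026, limma adjusted p = 0.143) and TET3 at -0.035 (95% interval -0.17 to 0.096, limma adjusted p = 0.647). Neither passed, so a fall particular to these genes and the lower level of their chromosome region cannot be told apart. The ratios of TET3 to TET2 and of DNMT3B to DNMT3A, the family sums and shares, and the order per kilobase given below were computed without this subtraction. They therefore include the level of the chromosome 2 region. DNMT3B stood at 0.012 after the subtraction. After the same subtraction 49.3% of tested genes passed, among them 6 of the 10. These were TET2 at 1.15, TDG at 0.285, MBD4 at 0.17, UHRF1 at 0.16, DNMT1 at -0.14 and TET1 at -1.99. TET1 was tested only because of its shSCR level, so its pass adds no support for a fall. The TET2 rise was thus larger against its own neighbours, whose median was -0.18.

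**Figure D3:**
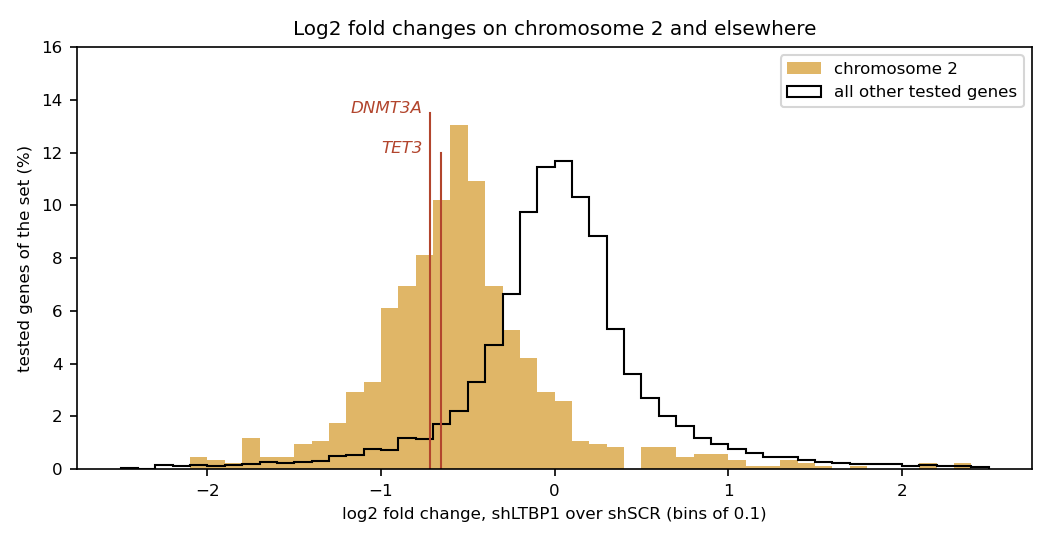
Log2 fold change of tested genes, shLTBP1 over shSCR (horizontal axis, bins of 0.1), as the percentage of genes on chromosome 2 (filled) and of all other tested genes (line); 14 genes of chromosome 2 and 120 others lie beyond the axis. DNMT3A and TET3 sit within the chromosome 2 distribution, left of the other genes' peak.

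**Figure D4:**
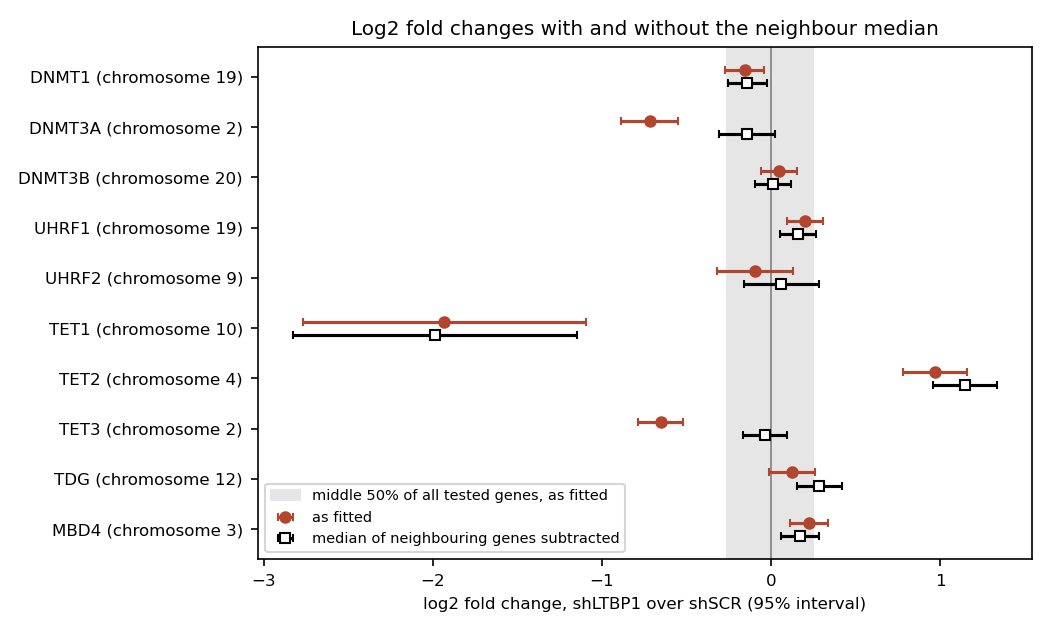
Log2 fold change of the 10 genes, shLTBP1 over shSCR, with 95% intervals, as fitted (filled circles) and with the median of neighbouring genes subtracted (open squares). The grey band runs from -0.26 to 0.25, the quartiles of all tested genes as fitted. No such band was computed for the subtracted values. TET1 and TET2 lie outside this as-fitted band both ways, DNMT3A and TET3 only as fitted, and TDG, at 0.285, only after the subtraction.

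The UHRF proteins read hemimethylated DNA, and UHRF1 is the partner that DNMT1 needs in dividing cells. UHRF1 (plus strand of chromosome 19, 4903080 to 4962154) had 3155, 3323 and 3185 normalized counts in shLTBP1 libraries, against 2762, 2752 and 2876 in shSCR libraries. All shLTBP1 values were higher than all shSCR values. The means were 3221 ± 89.7 in shLTBP1 and 2797 ± 69.0 in shSCR (SD, n = 3 each), a rise of 15.2% (log2 fold change 0.20, standard error 0.047, limma adjusted p = 0.00503).

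UHRF2 (plus strand of chromosome 9, 6413151 to 6507054), which also binds hydroxymethylated DNA, had 375, 332 and 407 in shLTBP1 libraries, against 421, 364 and 402.5 in shSCR libraries. The groups overlapped, and the log2 fold change was -0.095 (95% interval -0.32 to 0.13, limma adjusted p = 0.458). An antisense transcript covers part of this gene in the annotation, as TET2-AS1 does for TET2. The library kit keeps strand, per the labels, but the strand setting of the counting is unknown, so sense and antisense reads cannot be told apart for either gene. The log2 ratio of UHRF1 to DNMT1 was -1.24 ± 0.086 in shLTBP1 and -1.60 ± 0.049 in shSCR, and that of UHRF1 to UHRF2 was 3.12 ± 0.181 in shLTBP1 and 2.82 ± 0.102 in shSCR (SD, n = 3 each), both without overlap.

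The glycosylases start the repair step. MBD4 (minus strand of chromosome 3, 129430944 to 129440179) had 1971, 1887 and 1891 normalized counts in shLTBP1 libraries, against 1652, 1609 and 1649 in shSCR libraries. The spread within each group was small beside the gap between them. The means were 1916 ± 47.6 in shLTBP1 and 1637 ± 24.2 in shSCR (SD, n = 3 each), a rise of 17.1% (log2 fold change 0.23, standard error 0.050, limma adjusted p = 0.00376). MBD4 overlaps IFT122 on the opposite strand by 144 bases, and IFT122 had 1551 to 1738 in shLTBP1 libraries and 1144 to 1288 in shSCR libraries.

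TDG (plus strand of chromosome 12, 103965804 to 103988874) had 2563, 2935 and 2796 normalized counts in shLTBP1 libraries, against 2561, 2593 and 2444 in shSCR libraries. The lowest shLTBP1 library lay inside the shSCR range. TDG did not pass (log2 fold change 0.12, 95% interval -0.0092 to 0.26, limma adjusted p = 0.106). It did pass without shLTBP1 replicate 1 (0.18, adjusted p = 0.0348 in limma), with upper quartile scaling (0.17, adjusted p = 0.0426), and after subtraction of its neighbour median, -0.16 (adjusted p = 0.0032). The log2 ratio of TDG to MBD4 was 0.53 ± 0.133 in shLTBP1 and 0.63 ± 0.061 in shSCR (SD, n = 3 each) and overlapped (exact two-sided permutation p = 0.4). A pseudogene named TDGP1 is annotated elsewhere, as UHRF2P1 and TET1P1 are for UHRF2 and TET1, and how reads shared with such copies were counted is uncertain.

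Per kilobase, the order in shLTBP1 was DNMT1 (1408 normalized counts per kilobase), TDG (850), MBD4 (773), UHRF1 (747.5), DNMT3B (504), TET3 (453), TET2 (256), DNMT3A (119), UHRF2 (108) and TET1 (0.79). The ranges of TDG and MBD4, of MBD4 and UHRF1, and of DNMT3A and UHRF2 overlapped. In shSCR the order was DNMT1 (1568), TDG (779), TET3 (711), MBD4 (661), UHRF1 (649), DNMT3B (487), DNMT3A (195), TET2 (130.1), UHRF2 (115) and TET1 (3.2), where MBD4 and UHRF1 overlapped. TET2 thus stood above DNMT3A in shLTBP1 and below it in shSCR, also when all annotated exons were taken as the length (158 and 93.9 in shLTBP1, 80.3 and 154 in shSCR). No neighbour median was subtracted, so the places of DNMT3A and TET3 include the level of their chromosome 2 regions. On that other length the order behind DNMT1 was UHRF1 (626), MBD4 (571) and TDG (564) in shLTBP1, and TET3 (660.2), UHRF1 (544), TDG (516.5) and MBD4 (488) in shSCR.

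**Figure D5:**
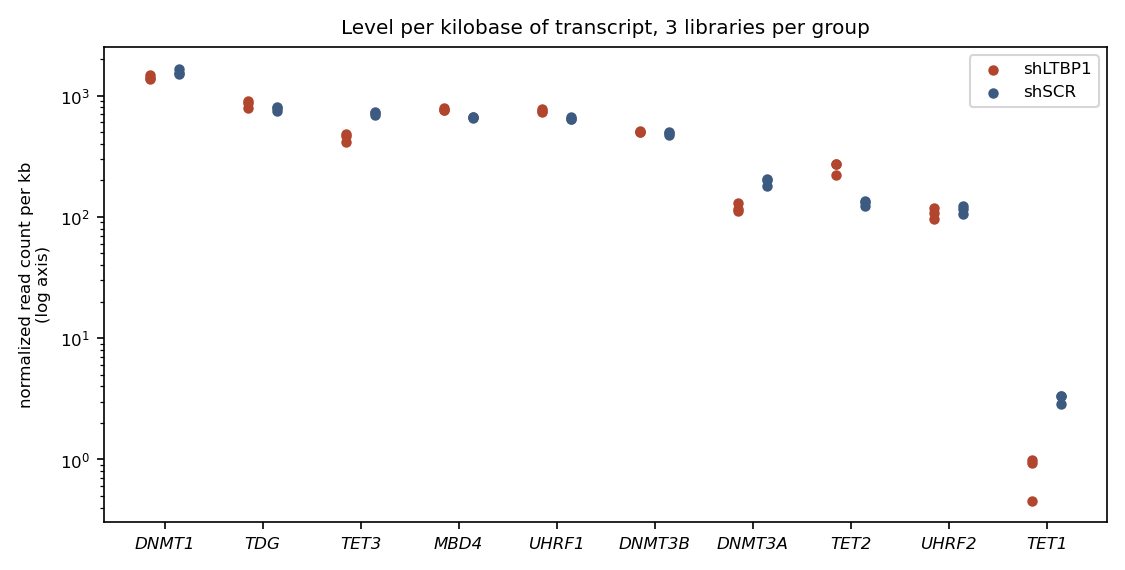
Normalized read count per kilobase of the longest protein-coding transcript (vertical log axis) in each library, shLTBP1 left of shSCR for each gene, ordered by the shSCR mean. TET2 and DNMT3A change places between the groups, and TET1 lies far below the other 9 genes. The levels of DNMT3A and TET3 include that of their chromosome 2 regions.

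The partners of maintenance methylation were next. Of 8 tested genes, 3 rose and none fell (median log2 fold change 0.011, against 0.0038 for all tested genes, of which 26.3% rose and 26.8% fell). PCLAF, a PCNA-associated factor, had 3517 ± 151 in shLTBP1 and 2564 ± 30.3 in shSCR, and PCNA, the sliding clamp that holds DNMT1 at the replication fork, 10712 ± 53.9 in shLTBP1 and 8319 ± 214 in shSCR (SD, n = 3 each; log2 fold changes 0.455 and 0.36, limma adjusted p = 4e-05 and 4.27e-05). The third was LIG1, a ligase of lagging-strand synthesis, at 0.245 (limma adjusted p = 0.0093; 0.076 and 0.356 relative to its neighbours). The deubiquitinase USP7, which stabilizes UHRF1 and DNMT1, was at -0.073, the chromatin remodeller HELLS at 0.072, and its partner CDCA7 at -0.093 (limma adjusted p = 0.227, 0.443 and 0.204). CDCA7 is on chromosome 2 and was at 0.42 once its neighbours were taken into account by the same subtraction (limma adjusted p = 0.000214).

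Of 16 S phase and proliferation genes, 9 rose and 4 fell, against 26.3% and 26.8% of all tested genes (median 0.18). Of those that fell, the helicase subunit MCM6 and the ribonucleotide reductase subunit RRM2 lie on chromosome 2, at -0.44 and -0.35, and were higher relative to their neighbours, at 0.21 and 0.17 (limma adjusted p = 0.00197 and 0.0322). CCNE2 had the largest rise, at 981 ± 121 in shLTBP1 and 618 ± 21.0 in shSCR, and CCNE1, the other cyclin E, the largest fall, at 284 ± 26.4 in shLTBP1 and 417 ± 41.2 in shSCR (SD, n = 3 each; limma adjusted p = 0.00021 and 0.00176). E2F1 was at 0.26 (limma adjusted p = 0.00272), or 0.10 with GC content and length trends removed (adjusted p = 0.148). The proliferation marker MKI67 was at -0.245 (limma adjusted p = 0.00755), or 0.013 with those trends removed (adjusted p = 0.878). UHRF1, at 0.20, had the sign of the list's median and DNMT1, at -0.15, the opposite one; the part of the cell cycle in their values was not tested.

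Among partners of de novo methylation, 1 of 5 tested genes fell and none rose, against 26.8% and 26.3% of all tested genes (median -0.033). With GC content and length trends removed 2 were higher and none lower. The gene that fell was ZNF445, a zinc finger protein of imprinted regions, at -0.21 (limma adjusted p = 0.0391). That call was lost when any of shSCR replicates 1, 2 and 3 or shLTBP1 replicate 2 was left out (-0.22 to -0.14, adjusted p = 0.0817 to 0.099), and also with upper quartile scaling, scaling by total, no variance trend or the neighbour median subtracted (adjusted p = 0.0511 to 0.0769), and the value was 0.081 with GC content and length trends removed. Without shLTBP1 replicate 3, the list had 2 genes lower. Of 6 methyl-CpG binding proteins, 1 rose and 1 fell, against 26.3% and 26.8% of all tested genes (median 0.024). ZBTB4 had 4981 ± 63.0 in shLTBP1 and 3918 ± 72.4 in shSCR, and ZBTB33, also called Kaiso, 1204 ± 73.6 in shLTBP1 and 1642 ± 62.0 in shSCR (SD, n = 3 each; limma adjusted p = 8.85e-05 and 0.000244). The number higher was 2 without shLTBP1 replicate 2, and 3 after removal of the GC content and length trends. The number lower was 2 with the neighbour median subtracted.

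Other genes of base excision repair, glycosylases among them, moved in both directions. Of 9 tested, 4 rose and 2 fell, against 26.3% and 26.8% of all tested genes (median 0.081). The glycosylase NEIL1 had 156.5 ± 20.2 in shLTBP1 and 100.7 ± 10.1 in shSCR (SD, n = 3 each; log2 fold change 0.63, limma adjusted p = 0.00519). Its relative NEIL2 was at -0.34 (limma adjusted p = 0.0205), a call lost without shSCR replicate 1 or 2 or shLTBP1 replicate 3 (-0.33 to -0.29, adjusted p = 0.0585 to 0.0772), which left 1 gene of the list lower.

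TET enzymes need 2-oxoglutarate, and methyltransferases need S-adenosylmethionine. Of 9 tested TET partners and genes of 2-oxoglutarate supply, 1 rose and 5 fell, against 26.3% and 26.8% of all tested genes (median -0.18). IDH2, the mitochondrial isocitrate dehydrogenase, had 4933 ± 105 in shLTBP1 and 3352 ± 28.9 in shSCR (limma adjusted p = 3.81e-06), and IDH1, the cytosolic enzyme, 3670 ± 236 in shLTBP1 and 5345 ± 16.3 in shSCR (limma adjusted p = 1.95e-05; SD, n = 3 each). IDH1 is on chromosome 2, where its neighbours had a median of -0.71. With that subtracted its value turned to 0.16 (limma adjusted p = 0.027), and the list's calls to 2 higher and 1 lower. The number lower was 2 without shSCR replicate 2 and 3 without shLTBP1 replicate 1.

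Of 6 tested genes of the methionine and S-adenosylmethionine cycle, 1 rose and 4 fell, against 26.3% and 26.8% of all tested genes (median -0.34). The methionine synthase MTR had 623.5 ± 56.9 in shLTBP1 and 1099 ± 44.4 in shSCR, and AHCY, which clears the methylation by-product S-adenosylhomocysteine, 9686 ± 63.3 in shLTBP1 and 11739 ± 121 in shSCR (SD, n = 3 each; limma adjusted p = 1.94e-05 and 0.000182). Both were also lower than their neighbours, at -0.68 and -0.32. MTRR, which reactivates MTR, and MAT2A, which makes S-adenosylmethionine, fell with log2 fold changes of -0.84 and -0.40 (limma adjusted p = 0.000297 and 2.18e-05), but relative to neighbouring genes their values were 0.016 and 0.21, and the list then had 2 higher and 2 lower. MAT2B, the regulatory subunit, rose by 0.31 (limma adjusted p = 0.000447).

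Of 9 polycomb and H3K9 methylation genes, 3 rose and 2 fell, against 26.3% and 26.8% of all tested genes (median 0.018). SETDB1, an H3K9 methyltransferase, was at 0.29 in log2 fold change (limma adjusted p = 0.00656; 0.18 and 0.0615 with the neighbour median subtracted), EZH2 of 0.15 (limma adjusted p = 0.0328) and EED of -0.21 (limma adjusted p = 0.0132). After that subtraction none of the list was higher by this test. EZH2 lost its call without shSCR replicate 1 or 2 or shLTBP1 replicate 1 or 3 (0.13 to 0.15, adjusted p = 0.0746 to 0.121) and EED without shSCR replicate 2 or 3 (-0.19 and -0.20, adjusted p = 0.0525 and 0.0503). The list had 1 gene higher without shSCR replicate 1 or 2 or shLTBP1 replicate 1, and 1 lower without any of these or shSCR replicate 3.

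Of 8 germline genes that are known to be silenced by promoter methylation in somatic cells, only TEX19 was expressed enough to test, with 25.2, 18.2 and 27.5 in shLTBP1 libraries, against 34.5, 26.4 and 23.9 in shSCR libraries. The groups overlapped and TEX19 did not pass (limma adjusted p = 0.481). DAZL, DDX4, TEX101 and SYCE1 stayed below 3 in every library, MAEL was listed at 0 in all 6, TDRD1 had 1.85 to 5.3 in shLTBP1 libraries and 0 to 2.06 in shSCR libraries, and SYCP3 had 0 to 3.5 in shLTBP1 libraries and 0 to 7.64 in shSCR libraries.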

How the data were processed

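RNA-seq libraries of MKN28 cells (3 shLTBP1, 3 shSCR) were grouped by title. The submitters' processing notes name STAR 2.7.3a, FastQC 0.10.1, DESeq2 and RSEM 1.3.1, with hg38 as the build; the sources used here give no annotation, strand setting or filter. The deposited signal per gene is a read count normalized by the authors with DESeq2, per the name of the table. Low values came out as whole multiples of a common step (within 0.1) in 35.5% to 37.8% of cases per library, so reads were not recovered, no count test was run and sequenced depth is unknown.

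Genes with a mean of at least 10 were tested on log2(value + 1) by limma 3.58.1 (R 4.3.3), with group as the only term, a mean-variance trend and two-sided p-values adjusted over 12789 genes. The fit was tested on simulated data. Positions, lengths and GC content came from GENCODE release 29, matching 19843 of the 19960 genes. The neighbour value is the median log2 fold change of up to 25 tested genes on each side. It was subtracted as a fixed value, so its own error is not in the intervals and p-values that follow. Promoter windows came from RefSeq.

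The members and lists were chosen with earlier results of these data known. Named genes are the 10 members, LTBP1, the largest called rise and fall of each list, and DNMT3L, HELLS, CDCA7, USP7, EZH2, MKI67, PCNA and E2F1; 1 further gene of that rule is not reported here. LIG1, MTR, MAT2A, AHCY, MCM6, RRM2, EPCAM, CDH1, the keratins, COL1A1, LUM, PTPRC and the germline genes were named after their values were seen. Alternatives were pseudocounts of 0.5 and 5, other filters, scalings and variance models, the replicate number as a block, each library left out, neighbours subtracted and, chosen after seeing the data, GC content and length trends removed by splines. Whether same-numbered libraries are pairs is unknown.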

Additional observations from a re-analysis of the deposited data

How the results depend on the processing

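TET2, UHRF1 and MBD4 kept direction and call in every alternative. TET1 did so wherever it was tested, with its shLTBP1 mean below the filter of 10. With a mean of at least 50 it was not tested, which left 3 of the 10 genes lower. DNMT3A and TET3 lost their calls only with the neighbour median subtracted (-0.14 and -0.035), which left 2 of the 10 genes lower, against 4 as reported; TET3 was -0.43 with GC content and length trends removed. DNMT1 lost its call with upper quartile scaling (-0.11), quantile normalization (-0.13), no variance trend (-0.15) or those trends removed (-0.10), the cause not tested, and was -0.19 to -0.11 with a library left out. Signs turned with the neighbour median subtracted for UHRF2 (0.062), CDCA7 (0.42), IDH1 (0.16), MAT2A (0.21), MCM6 (0.21), RRM2 (0.17) and MTRR (0.016), and with GC content and length trends removed for MKI67 (0.013), USP7 (0.043) and ZNF445 (0.081). Leaving out 1 library gave HELLS -0.01 to 0.13, turning sign without shLTBP1 replicate 3. Of 324 recomputed counts for the lists, 42 moved by over 1.5 times or went to or from 0. Beside those given with each list, upper quartile scaling gave 0 de novo partners lower, 2 methyl-CpG binders higher, 2 TET partners lower and 1 polycomb or H3K9 gene lower, and quantile normalization 2 methyl-CpG binders higher and 1 polycomb or H3K9 gene lower. Scaling by total gave 0 de novo partners lower and 2 methyl-CpG binders higher, no variance trend 0 de novo partners lower, and no filter 2 methionine cycle genes higher. With GC content and length trends removed, 3 TET partners were lower and 5 polycomb or H3K9 genes higher. With the replicate block 3347 genes were higher and 3408 lower (3362 and 3426 without); it changed no call among the 10 genes, and gave 2 de novo partners lower and 2 methyl-CpG binders higher. Same-numbered libraries of the 2 groups correlated at -0.009, 0.058 and -0.001 in their deviations, and differently numbered ones at -0.040 to 0.045. Values this near 0 cannot settle whether the numbers mark pairs. Counting error limits TET1 most, and the unknown depth allows no interval for it.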
